A study of Mus musculus with 8 samples.

Results

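Collagen chains and the enzymes that modify them are described here in outflow tract (OFT) RNA of mouse embryos. Members were all genes of the expression table with the symbol of a collagen chain, a lysyl oxidase (Lox, Loxl), a lysyl hydroxylase (Plod), a prolyl 4-hydroxylase alpha subunit (P4ha) or a prolyl 3-hydroxylase (P3h), with the chaperone Serpinh1 and the enhancers Pcolce and Pcolce2. There were 53 of 14608 genes, of which 35 were chains and 18 were enzymes, the chaperone or enhancers. The symbols Col10a1, Col17a1, Col19a1, Col28a1, Col4a3, Col4a4, Col5a3, Col6a4 and Col6a5 also match and were not analysed here. The study kept genes above a minimum of counts per 1e6 reads (CPM), and all 53 members reached 1 CPM in 3 or more libraries.

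RNA-seq was performed on the OFT at embryonic day 11.5, with 4 libraries titled WT (control) and 4 titled MUT (mutant). The study gives the mutant genotype as Mib1V943F/+ Gata6+/STOP. The mutant embryos carry a missense allele of the ubiquitin ligase gene Mib1 and a null allele of the transcription factor gene Gata6, on opposite copies of chromosome 18. The series description gives 3 individuals per pooled library while the methods give another pool size and another number of pools than the 4 libraries per group, and genetic background, sex and litter were not given in the sources used here. Beyond the labels nothing states that the libraries of a group come from separate litters, so p-values measure the spread between these samples. Depth, as reads on the genes of the table, was 28212669, 10669420, 24833953 and 25963535 for control-labelled replicates 1 to 4. It was 21064242, 27194966, 30469165 and 26142501 for mutant-labelled replicates 1 to 4. Gata6 stood at 236, 279, 271 and 261 CPM in control-labelled replicates 1 to 4 against 213, 284, 276 and 224 CPM in mutant-labelled replicates 1 to 4. Mib1 stood at 138, 107, 109.9 and 132 CPM in control-labelled replicates 1 to 4 against 123, 137, 123 and 126 CPM in mutant-labelled replicates 1 to 4. The groups overlapped for both mutated genes, whose RNA level therefore does not separate the labels, and the groups are called control-labelled and mutant-labelled.

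Collagen chains wind around each other into a helix that depends on glycine at regular positions, on hydroxylated proline for its stability and on hydroxylated lysine for sugars and cross-links. Fibrillar collagens form the fibres of the cushion and the vessel wall, network collagens build basement membranes, and fibril-associated collagens sit on the surface of fibres. In the developing OFT the cushion mesenchyme, the endocardium, the myocardium and the first smooth muscle cells each lay down their own collagens.

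Levels were compared between genes as CPM per kb of exon length. Together the members took between 1.217% and 1.43% of the CPM of a library, and their summed CPM was 12426, 13679, 13642 and 12913 in control-labelled replicates 1 to 4 against 11971, 12664, 14128 and 13555 in mutant-labelled replicates 1 to 4. The summed level overlapped between the groups. Serpinh1, the chaperone of procollagen in the endoplasmic reticulum, was the most abundant member per length, at 592 ± 45.1 CPM per kb (SD, n = 4) with the control label and 519.5 ± 112 with the mutant label. Col3a1, a chain of fibres in elastic tissue, came next at 192 ± 14.4 CPM per kb (SD, n = 4) with the control label and 214 ± 34.3 with the mutant label. Of the lower levels, Col1a1, Loxl2 and Col18a1 followed at 167, 164 and 142 CPM per kb over the 8 libraries, and Col1a1 and Loxl2 differed by less than their SD. Counted over the longest transcript in place of all exons, Col3a1 stood at 357 CPM per kb and Serpinh1 at 597, still the highest pair, while Col1a2 came before Col1a1. The lowest member was Col20a1, at 0.2796 ± 0.0791 CPM per kb (SD, n = 4) with the control label and 0.181 ± 0.0544 with the mutant label.

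**Figure D1:**
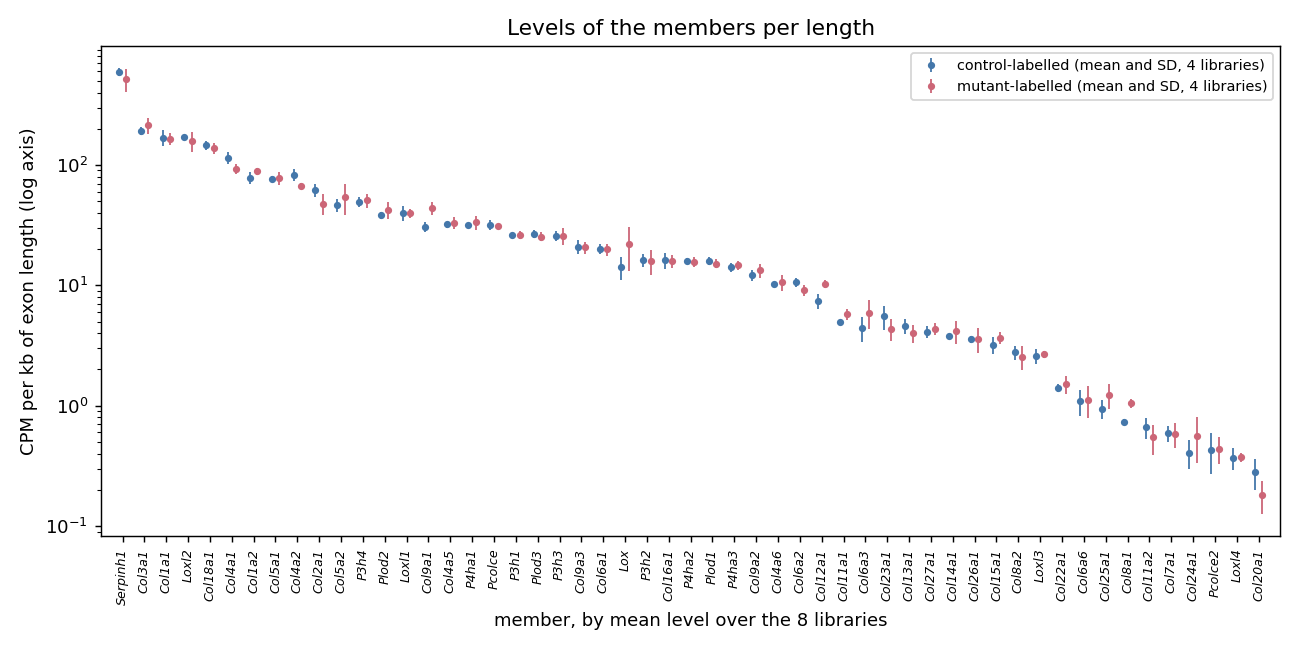
Level of each of the 53 members in CPM per kb of exon length on a log axis, ordered by the mean over the 8 libraries, with points for the group means and bars for the SD over 4 libraries. Serpinh1 stands above all chains and Col20a1 is lowest.

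Over all genes mutant-labelled replicate 2 stood apart from the other libraries of its group. Its median absolute log2 deviation from the others of its group was 0.191, against 0.0986 to 0.152 in the other 7 libraries. Over the members it was the highest or lowest library of its group in 36 of 53 (67.9%, against 72.5% of all genes). Control-labelled replicate 1 was so in 40 members (75.5%, against 50.1% of all genes), and it was the lowest of its group in 31. Mutant-labelled replicate 1 was so in 32 members (60.4%, against 49.8% of all genes), and it was the lowest of its group in 24. Over the members the median absolute deviation was 0.261 in mutant-labelled replicate 2, 0.253 in mutant-labelled replicate 1 and 0.196 in control-labelled replicate 1. The slope of the log2 deviation from the mean of all libraries on transcript GC content was -0.18 per 10% GC in mutant-labelled replicate 2, against 0.21 in control-labelled replicate 2 and 0.10 in control-labelled replicate 3. Over the 53 members the correlation of this deviation with GC content was 0.148, 0.544, 0.495 and 0.105 in control-labelled replicates 1 to 4. It was 0.057, -0.558, -0.234 and -0.163 in mutant-labelled replicates 1 to 4. The mutant-labelled libraries were all below the control-labelled ones, as a description across genes, which are not independent replicates. The members are rich in GC, with a median of 55.1% against 49.5% over 14594 genes with a value. Fold changes are therefore also given without mutant-labelled replicate 2 and with the GC trend of each library removed for each member whose libraries are listed, and the GC setting was added after seeing the data. With the trend removed the median log2 fold change was 0.091 over the members, against 0.017 before, and 0.00012 over all genes, against 0.0011 before. The libraries also differed in markers of cardiomyocytes, which are muscle cells of the heart. The summed CPM of the 8 markers, of which Myh7 was the most abundant, was 25040, 24579, 23825 and 21577 CPM in control-labelled replicates 1 to 4 against 18835, 16603, 18357 and 20365 CPM in mutant-labelled replicates 1 to 4. All mutant-labelled libraries were below all control-labelled ones, and 7 of 8 markers were lower at an unadjusted limma p under 0.05, as were 967 of 14608 genes.

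**Figure D2:**
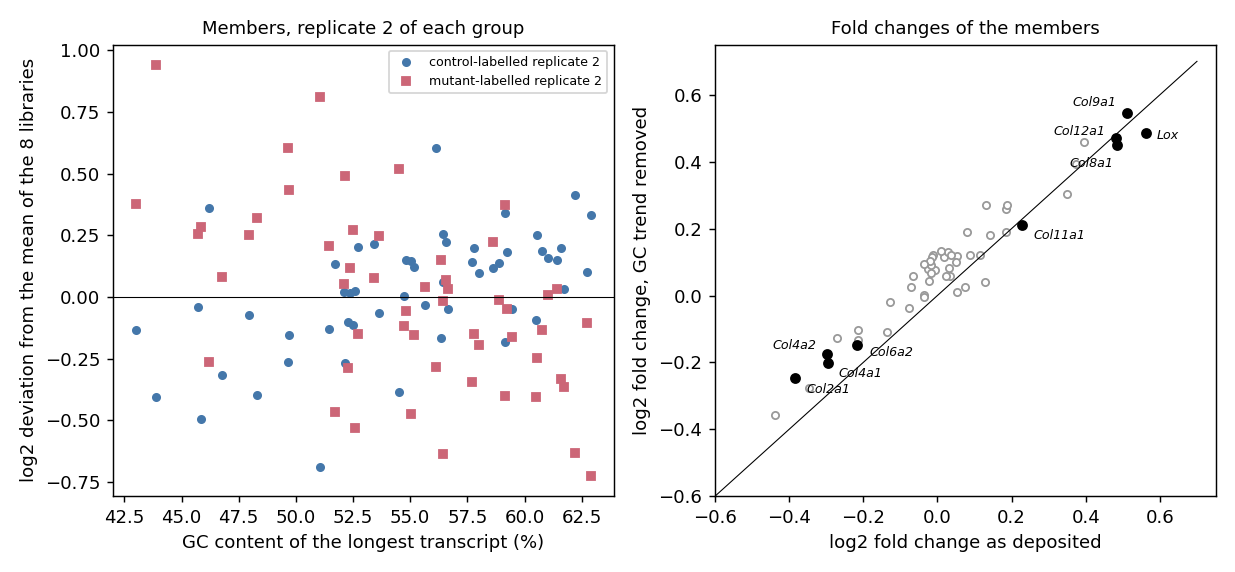
On the left, the log2 deviation of each of the 53 members from the mean of the 8 libraries against transcript GC content (%), for replicate 2 of each group. On the right, the log2 fold change of each member before and after the GC trend was removed, with the diagonal for equal values and filled points for the 9 members with an unadjusted limma p under 0.05; most members lie above the diagonal.

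Genotypes were compared over all 14608 genes with limma on log2(CPM + 0.5), a scale that understates changes of genes with few CPM, with Benjamini-Hochberg adjustment over those genes. Of the members 0 passed an adjusted p of 0.05 in limma, and so did 0% of all genes. At an unadjusted p under 0.05, 5 of 53 members were higher in the mutant-labelled libraries (Col9a1, Col12a1, Col8a1, Col11a1 and Lox), or 9.43% against 5.45% of all genes. At the same threshold 4 members were lower (Col4a2, Col4a1, Col2a1 and Col6a2), or 7.55% against 6.62% of all genes. The other 44 members did not pass. The likelihood ratio test of edgeR on whole reads recovered from the CPM called 26 genes higher (0.178% of all genes) and 81 lower (0.554%), and of the members Col9a1 and Col12a1 rose and 0 fell. At an unadjusted p under 0.05 in that test, 6 members were higher (5.2% of all genes) and 5 lower (6.17% of all genes). The quasi-likelihood test of edgeR called 0 genes, and at an unadjusted p under 0.05 in it 5 members were higher (5.33% of all genes) and 4 lower (6.37% of all genes). DESeq2 called 194 genes, among them the members Col9a1, Col12a1 and Col8a1 as higher (0.322% of all genes) and Col4a2 as lower (1.01% of all genes). Groups did not overlap, with all mutant-labelled libraries higher, for Col9a1, Col12a1 and Col8a1 (3 of 53, against 3.2% of all genes), and for Col4a1 with all lower (1 of 53, against 3.9%). Of all members 28 had a log2 fold change above 0 and 25 below.

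Without mutant-labelled replicate 2, 4 members were higher at an unadjusted p under 0.05 (3.64% of all genes) and 5 were lower (5.46% of all genes). In that setting Lox no longer passed and Col8a2 did. Without control-labelled replicate 3, 8 members were higher (3.37% of all genes) and 3 lower (4.65% of all genes). Without mutant-labelled replicate 1, 8 members were higher (5.8% of all genes) and 4 lower (6.46% of all genes). With the GC trend removed, 7 members were higher (4.67% of all genes) and 1, Col2a1, was lower (6.51% of all genes). Col1a2, Col9a2 and Col15a1 were among the 7, and Col4a1, Col4a2, Col6a2 and Lox no longer passed. Col9a1, Col12a1, Col8a1, Col11a1 and Col2a1 passed with all libraries, in each of the 3 fits without a library named here and with the GC trend removed. With both the GC trend and mutant-labelled replicate 2 removed, 7 members were higher (4.27% of all genes) and 0 lower (6.22% of all genes), so Col2a1 did not pass there. Lox passed with all libraries and lost its pass when control-labelled replicate 1 or 2, or mutant-labelled replicate 2, 3 or 4, was left out. Col6a2 lost its pass without control-labelled replicate 3 and without mutant-labelled replicate 1, and neither gene passed with the GC trend removed. In bulk tissue, fewer cells of a type and less RNA per cell cannot be told apart.

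**Figure D3:**
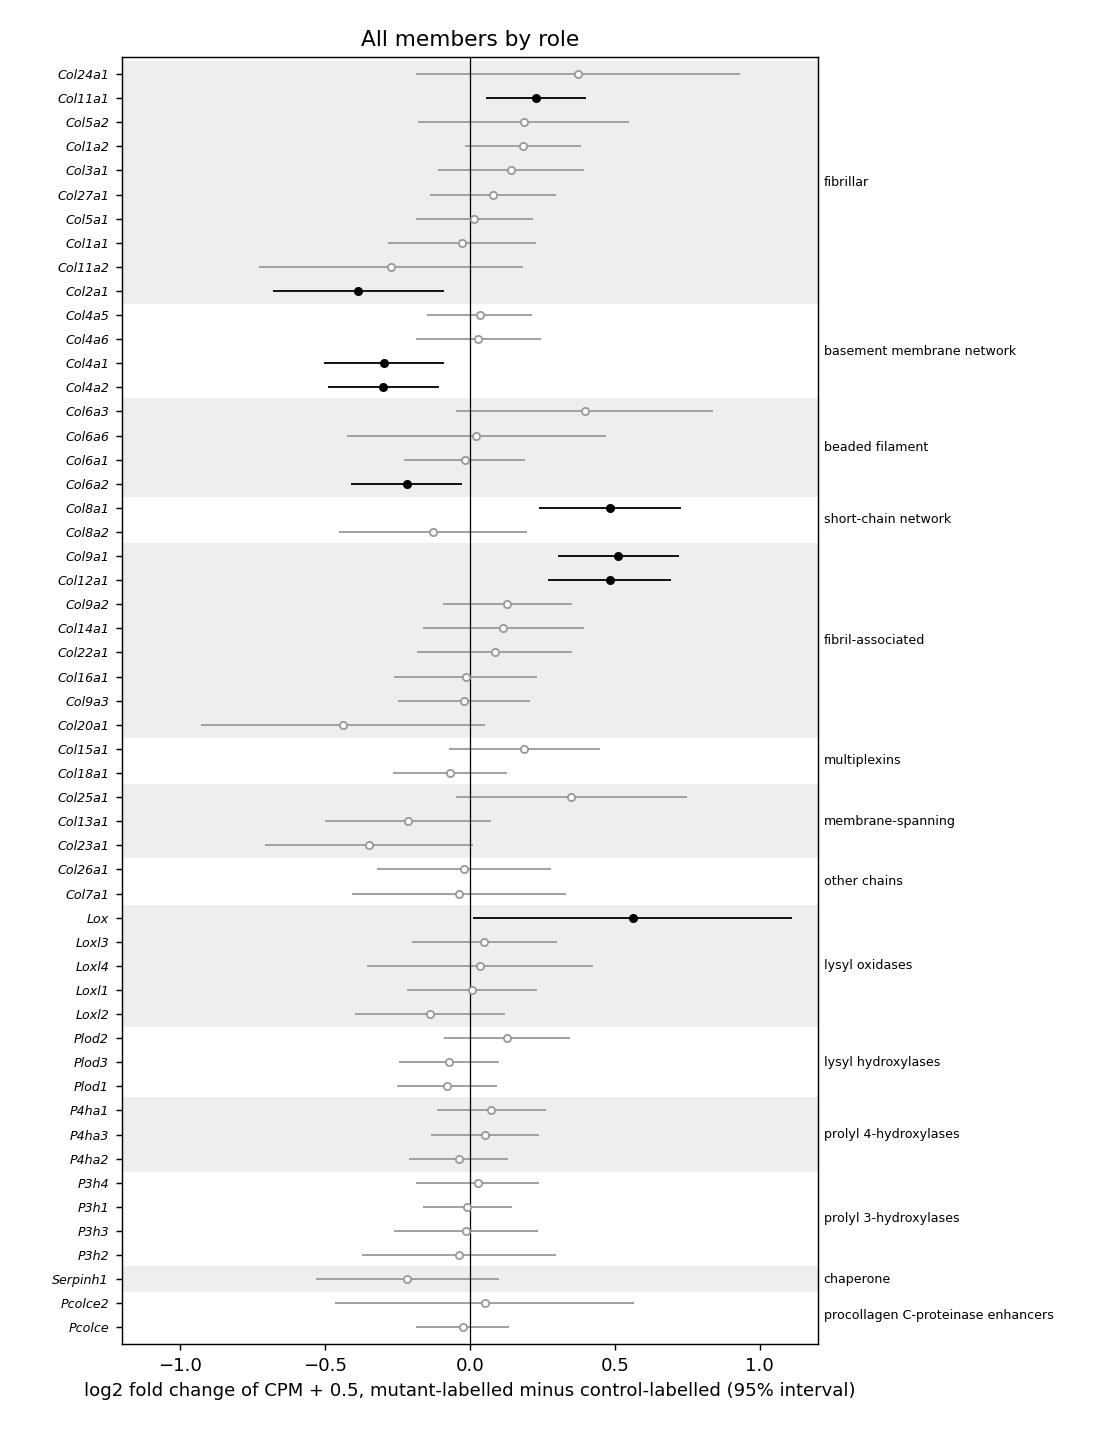
Log2 fold change of CPM + 0.5 of each member, mutant-labelled minus control-labelled, grouped by role, with bars for the 95% interval of limma. Filled points mark the 9 members with an unadjusted p under 0.05, which lie in 5 of the 8 groups of chains and among the lysyl oxidases.

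Among the fibrillar chains, Col3a1 stood at 1726, 1822, 2056 and 1923 CPM in control-labelled replicates 1 to 4 against 1634, 2382, 2307 and 2059.6 CPM in mutant-labelled replicates 1 to 4. Mutant-labelled replicates 2 to 4 were the highest of the 8 and mutant-labelled replicate 1 the lowest, and the log2 fold change was 0.14 ± 0.12 (SE; limma, adjusted p = 0.612). It was 0.076 without mutant-labelled replicate 2, ran from 0.076 to 0.26 over all libraries left out in turn, and was 0.18 with the GC trend removed. Of the fits with 1 library left out, the highest value for Col3a1, 0.26, came without mutant-labelled replicate 1. Col2a1, the main chain of cartilage fibres that is also made by valve mesenchyme, stood at 564, 662, 489 and 571 CPM in control-labelled replicates 1 to 4 against 512, 321, 484 and 452 CPM in mutant-labelled replicates 1 to 4. Mutant-labelled replicate 2 was the lowest and mutant-labelled replicate 1 lay within the control-labelled range. Its log2 fold change was -0.38 ± 0.14 (SE; limma, adjusted p = 0.331). It was -0.24 without mutant-labelled replicate 2, ran from -0.46 to -0.24 over all libraries left out in turn, and was -0.25 with the GC trend removed. Col11a1, which nucleates fibres together with type II and type V chains, stood at 60.6, 64.4, 64.1 and 61.4 CPM in control-labelled replicates 1 to 4 against 74.9, 80.8, 76.1 and 63.2 CPM in mutant-labelled replicates 1 to 4. Mutant-labelled replicates 1 to 3 lay above all control-labelled libraries and replicate 4 lay among them. For Col11a1 the log2 fold change was 0.23 ± 0.079 (SE; limma, adjusted p = 0.326). It was 0.18 without mutant-labelled replicate 2, ran from 0.18 to 0.30 over all libraries left out in turn, and was 0.21 with the GC trend removed. The other fibrillar chains (Col1a1, Col1a2, Col5a1, Col5a2, Col11a2, Col24a1 and Col27a1) had log2 fold changes from -0.27 to 0.37, and none passed an unadjusted limma p of 0.05 with all libraries.

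Type IV chains form the network of basement membranes. Col4a1 (ENSMUSG00000031502) and Col4a2 (ENSMUSG00000031503) lie head to head on chromosome 8 of GRCm38, Col4a1 from 11198423 to 11312826 on the minus strand and Col4a2 from 11312805 to 11449287 on the plus strand, so that the genes overlap by 22 bp. The promoter windows of RefSeq (GRCm38.p6, 250 bases before to 50 after the start) are shown because the values of these neighbours went the same way. The window of Col4a1 is chr8:11312777-11313076 on the minus strand and that of Col4a2 is chr8:11312555-11312854 on the plus strand, and capitals mark the 78 bases that they share, read on opposite strands.
Col4a1: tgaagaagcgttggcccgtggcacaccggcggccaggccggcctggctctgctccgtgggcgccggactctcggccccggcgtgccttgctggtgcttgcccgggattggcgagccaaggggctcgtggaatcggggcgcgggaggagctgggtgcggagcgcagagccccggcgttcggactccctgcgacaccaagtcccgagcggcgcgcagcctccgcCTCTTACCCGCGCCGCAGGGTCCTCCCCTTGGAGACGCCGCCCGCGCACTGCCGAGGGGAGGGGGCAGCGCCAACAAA
Col4a2: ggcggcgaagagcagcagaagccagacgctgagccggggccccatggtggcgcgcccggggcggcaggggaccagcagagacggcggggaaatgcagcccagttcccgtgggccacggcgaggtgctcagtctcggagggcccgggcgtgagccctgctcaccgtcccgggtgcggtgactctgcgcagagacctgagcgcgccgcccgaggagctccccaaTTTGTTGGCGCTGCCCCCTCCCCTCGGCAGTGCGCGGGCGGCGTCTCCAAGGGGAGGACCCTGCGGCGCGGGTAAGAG
Both windows hold CCAAT or its reverse complement, as do 37.4% of all 32851 promoter windows. Both also hold GGGCGG (35.7% of all windows) and GGGAGG (42.4%), each counted on both strands. Neither holds TATAAA (13.6% of all windows), nor AGATAA (11.2%), nor TGGGAA (25.6%), read on either strand. Of the 42 windows of 38 members, 30 hold GGGCGG or its reverse complement (71.4%) and 13 hold CCAAT or its reverse complement (30.95%). Counted likewise, 34 hold GGGAGG (80.95%), 14 TGGGAA (33.3%), 5 TATAAA (11.9%) and 1 AGATAA (2.38%). The windows of Col4a1 and Col4a2 are 74% and 73.7% GC, and these shares were not matched for GC content. A match of letters is a description, and binding was not tested.

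Col4a1 stood at 982, 843, 832 and 747 CPM in control-labelled replicates 1 to 4 against 729, 603, 694 and 744 CPM in mutant-labelled replicates 1 to 4. All mutant-labelled libraries were below all control-labelled ones, though mutant-labelled replicate 4 and control-labelled replicate 4 nearly met. For Col4a1 the log2 fold change was -0.30 ± 0.095 (SE; limma, adjusted p = 0.298). Col4a2 stood at 611, 587, 541 and 461 CPM in control-labelled replicates 1 to 4 against 448, 416, 454 and 464 CPM in mutant-labelled replicates 1 to 4. Control-labelled replicate 4 lay just within the mutant-labelled range and the other control-labelled libraries above it. For Col4a2 the log2 fold change was -0.30 ± 0.087 (SE; limma, adjusted p = 0.27). With the GC trend removed the log2 fold changes were -0.20 for Col4a1 and -0.18 for Col4a2, and neither passed an unadjusted limma p of 0.05. Without mutant-labelled replicate 2 they were -0.23 and -0.26. The summed CPM of the 4 type IV chains was 1904, 1709, 1672 and 1511.9 in control-labelled replicates 1 to 4 against 1436, 1369, 1462 and 1511.5 in mutant-labelled replicates 1 to 4. The groups met at replicate 4 of each, and the part of the cardiomyocyte markers, which were lower in the same libraries, was not tested. Col4a5 and Col4a6, also head to head with 1308 bp between them on chromosome X, had log2 fold changes of 0.035 and 0.0303.

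Type VI chains build beaded filaments close to the cell surface. Col6a1 stood at 80.8, 84.3, 101 and 86.2 CPM in control-labelled replicates 1 to 4 against 73.1, 89.2, 90.1 and 96.5 CPM in mutant-labelled replicates 1 to 4. The groups overlapped, and the log2 fold change was -0.017 ± 0.096 (SE; limma, adjusted p = 0.949). It was -0.031 without mutant-labelled replicate 2, ran from -0.068 to 0.065 over all libraries left out in turn, and was 0.067 with the GC trend removed. Col6a2, its partner 85161 bp away on chromosome 10, stood at 86.9, 89.05, 97.7 and 80.5 CPM in control-labelled replicates 1 to 4 against 66.4, 73.5, 84.8 and 80.2 CPM in mutant-labelled replicates 1 to 4. Mutant-labelled replicates 1, 2 and 4 lay below all control-labelled libraries and replicate 3 lay among them, and the log2 fold change was -0.22 ± 0.087 (SE; limma, adjusted p = 0.378). It was -0.20 without mutant-labelled replicate 2, ran from -0.27 to -0.15 over all libraries left out in turn, and was -0.15 with the GC trend removed. Col6a3 and Col6a6 had log2 fold changes of 0.40 and 0.022 and did not pass an unadjusted limma p of 0.05 with all libraries.

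Type VIII chains form short-chain networks in vessel walls and below endothelia. Col8a1 stood at 5.98, 5.41, 5.49 and 6.05 CPM in control-labelled replicates 1 to 4 against 7.98, 7.28, 8.91 and 8.76 CPM in mutant-labelled replicates 1 to 4. All mutant-labelled libraries were above all control-labelled ones at this low level. For Col8a1 the log2 fold change was 0.48 ± 0.11 (SE; limma, adjusted p = 0.212). It was 0.54 without mutant-labelled replicate 2, ran from 0.45 to 0.54 over all libraries left out in turn, and was 0.45 with the GC trend removed. Col8a2 stood at 11.9, 10.34, 13.9 and 13.7 CPM in control-labelled replicates 1 to 4 against 10.27, 15.4, 10.2 and 10.02 CPM in mutant-labelled replicates 1 to 4. Mutant-labelled replicate 2 was the highest of all 8 libraries while the other mutant-labelled libraries were below all control-labelled ones. For Col8a2 the log2 fold change was -0.13 ± 0.15 (SE; limma, adjusted p = 0.739). It was -0.27 without mutant-labelled replicate 2, ran from -0.27 to -0.073 over all libraries left out in turn, and was -0.018 with the GC trend removed.

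The fibril-associated chains held the members with the smallest p-values. Col9a1, which decorates fibres of type II collagen, lies on chromosome 1 from 24177610 to 24252684 and stood at 136, 154, 169 and 165 CPM in control-labelled replicates 1 to 4 against 200.5, 261, 227 and 203 CPM in mutant-labelled replicates 1 to 4. All mutant-labelled libraries were above all control-labelled ones. For Col9a1 the log2 fold change was 0.51 ± 0.096 (SE; limma, adjusted p = 0.142), and the likelihood ratio test of edgeR gave an adjusted p of 0.00143. Col12a1, which binds type I fibres in tissues under tension, lies on chromosome 9 from 79598991 to 79718831 and stood at 135, 100.2, 101 and 113 CPM in control-labelled replicates 1 to 4 against 143, 165, 150.2 and 168 CPM in mutant-labelled replicates 1 to 4. The groups did not overlap, with control-labelled replicate 1 closest to the mutant-labelled libraries. For Col12a1 the log2 fold change was 0.48 ± 0.098 (SE; limma, adjusted p = 0.174), and the likelihood ratio test of edgeR gave an adjusted p of 0.00556. With the GC trend removed the log2 fold changes were 0.54 for Col9a1 and 0.47 for Col12a1, and without mutant-labelled replicate 2 they were 0.43 and 0.46. The partners of Col9a1 in type IX collagen, Col9a2 and Col9a3, had log2 fold changes of 0.13 and -0.019. With the GC trend removed these were 0.27 and 0.091, and Col9a2 passed an unadjusted limma p of 0.05 in that setting. Col14a1, Col16a1, Col20a1 and Col22a1 ranged from -0.44 to 0.12 and did not pass an unadjusted limma p of 0.05 with all libraries.

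Of the multiplexins, whose C-terminal fragments are shed from basement membranes, Col18a1 stood at 934, 1129.5, 1019.6 and 995 CPM in control-labelled replicates 1 to 4 against 870.2, 907, 1089 and 1035 CPM in mutant-labelled replicates 1 to 4. The groups overlapped, and the log2 fold change was -0.067 ± 0.0902 (SE; limma, adjusted p = 0.775). It was -0.034 without mutant-labelled replicate 2, ran from -0.12 to -0.014 over all libraries left out in turn, and was 0.057 with the GC trend removed. Col23a1, a membrane-spanning chain, stood at 42.04, 30.6, 28.9 and 25.6 CPM in control-labelled replicates 1 to 4 against 29.1, 19.8, 20.9 and 29.8 CPM in mutant-labelled replicates 1 to 4. Mutant-labelled replicates 2 and 3 were the lowest of the 8 libraries and control-labelled replicate 1 the highest, and the log2 fold change was -0.35 ± 0.17 (SE; limma, adjusted p = 0.428). It was -0.25 without mutant-labelled replicate 2, ran from -0.44 to -0.21 over all libraries left out in turn, and was -0.28 with the GC trend removed. Of the fits with 1 library left out, the smallest size for Col23a1, -0.21, came without control-labelled replicate 1. Col26a1 stood at 28.7, 27.03, 28.96 and 31.9 CPM in control-labelled replicates 1 to 4 against 37.5, 21.7, 31.2 and 26.8 CPM in mutant-labelled replicates 1 to 4. Mutant-labelled libraries were both the highest and the lowest of the 8, and the log2 fold change was -0.019 ± 0.14 (SE; limma, adjusted p = 0.961). It was 0.11 without mutant-labelled replicate 2, ran from -0.15 to 0.11 over all libraries left out in turn, and was 0.10 with the GC trend removed. Col7a1, Col13a1, Col15a1 and Col25a1 had log2 fold changes from -0.21 to 0.35.

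**Figure D4:**
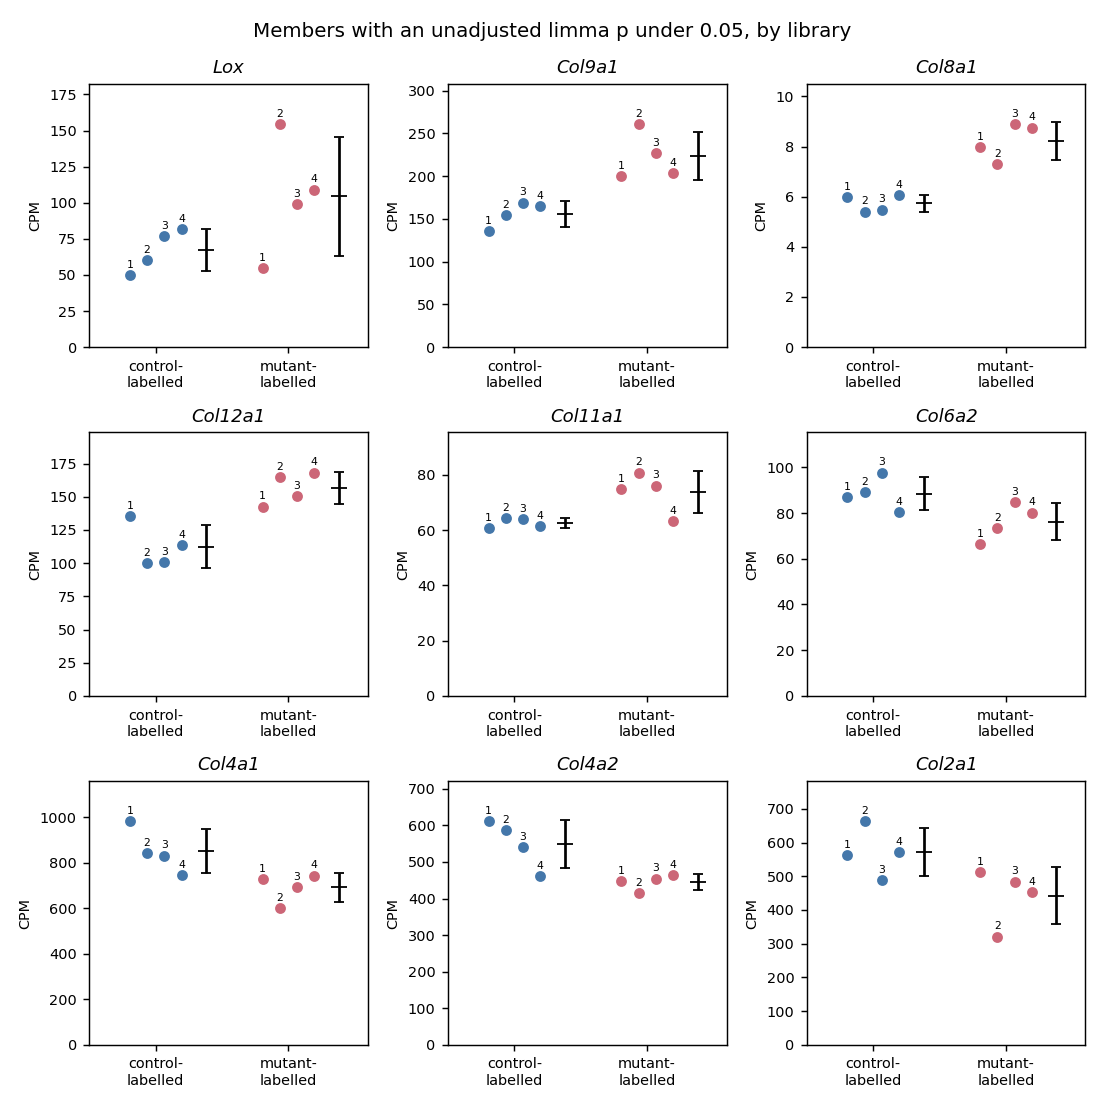
CPM of the 9 members with an unadjusted limma p under 0.05 in each library, numbered by replicate, with the mean and SD over 4 libraries beside each group and axes that start at 0. Groups are separate for Col9a1, Col12a1, Col8a1 and Col4a1, and mutant-labelled replicate 2 is the highest library for Lox and the lowest for Col2a1.

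The modifying enzymes, with the chaperone and the enhancers, had a median absolute log2 fold change of 0.051 over 18 genes against 0.18 over 35 chains and 0.11 over all genes. Lox, which oxidises lysine so that fibres can be cross-linked, lies on chromosome 18 from 52516067 to 52529867. Mib1 (10725548 to 10818704) and Gata6 (11052064 to 11085635) lie far from it on the same chromosome. Lox stood at 50.1, 60.5, 76.7 and 81.9 CPM in control-labelled replicates 1 to 4. In mutant-labelled replicates 1 to 4 it stood at 54.5, 155, 99.3 and 109 CPM. Mutant-labelled replicates 2 to 4 lay above all control-labelled libraries, replicate 2 by far, and mutant-labelled replicate 1 lay among the lowest. For Lox the log2 fold change was 0.56 ± 0.25 (SE; limma, adjusted p = 0.409). It was 0.34 without mutant-labelled replicate 2, ran from 0.34 to 0.84 over all libraries left out in turn, and was 0.48 with the GC trend removed. Loxl2, the lysyl oxidase with the highest level per length, stood at 917, 965, 872 and 934 CPM in control-labelled replicates 1 to 4 against 834, 636, 981 and 950.5 CPM in mutant-labelled replicates 1 to 4. Mutant-labelled replicates 1 and 2 were the lowest of the 8 libraries and replicate 3 the highest, and the log2 fold change was -0.14 ± 0.12 (SE; limma, adjusted p = 0.638). It was -0.0028 without mutant-labelled replicate 2, ran from -0.21 to -0.0028 over all libraries left out in turn, and was -0.11 with the GC trend removed. Loxl1, Loxl3 and Loxl4 had log2 fold changes from 0.0085 to 0.0504.

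Plod2, which hydroxylates lysine in the ends of the chains, stood at 198, 196, 205 and 225 CPM in control-labelled replicates 1 to 4 against 195.5, 279.8, 224 and 210.1 CPM in mutant-labelled replicates 1 to 4. Mutant-labelled replicate 2 was the highest and the other libraries overlapped, and the log2 fold change was 0.13 ± 0.10 (SE; limma, adjusted p = 0.594). It was 0.025 without mutant-labelled replicate 2, ran from 0.025 to 0.20 over all libraries left out in turn, and was 0.0399 with the GC trend removed. P4ha1, a catalytic subunit of the enzyme that hydroxylates proline in the helix, stood at 124, 129, 128 and 136 CPM in control-labelled replicates 1 to 4 against 116, 159, 134 and 139 CPM in mutant-labelled replicates 1 to 4. The groups overlapped, with mutant-labelled libraries at both ends of the range, and the log2 fold change was 0.075 ± 0.087 (SE; limma, adjusted p = 0.737). It was 0.0015 without mutant-labelled replicate 2, ran from 0.0015 to 0.15 over all libraries left out in turn, and was 0.026 with the GC trend removed. P3h4, a partner of P3h3 in a complex for lysine hydroxylation, stood at 95.4, 118, 115 and 103 CPM in control-labelled replicates 1 to 4 against 98.6, 127, 117 and 99.2 CPM in mutant-labelled replicates 1 to 4. The groups overlapped, and the log2 fold change was 0.027 ± 0.097 (SE; limma, adjusted p = 0.918). It was -0.042 without mutant-labelled replicate 2, ran from -0.042 to 0.079 over all libraries left out in turn, and was 0.13 with the GC trend removed. The other hydroxylases (Plod1, Plod3, P4ha2, P4ha3, P3h1, P3h2 and P3h3) had log2 fold changes from -0.077 to 0.053.

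Serpinh1 stood at 1362, 1596, 1458 and 1365 CPM in control-labelled replicates 1 to 4 against 1422, 860.0, 1436 and 1359 CPM in mutant-labelled replicates 1 to 4. Mutant-labelled replicate 2 was far below the other 7 libraries, which overlapped, and the log2 fold change was -0.21 ± 0.15 (SE; limma, adjusted p = 0.551). It was -0.038 without mutant-labelled replicate 2, ran from -0.28 to -0.038 over all libraries left out in turn, and was -0.13 with the GC trend removed. Pcolce, which speeds the removal of the C-propeptide, stood at 108, 134, 128 and 117 CPM in control-labelled replicates 1 to 4 against 118, 116, 125 and 118 CPM in mutant-labelled replicates 1 to 4. The mutant-labelled libraries lay within the control-labelled range, and the log2 fold change was -0.024 ± 0.074 (SE; limma, adjusted p = 0.908). It was -0.0089 without mutant-labelled replicate 2, ran from -0.078 to 0.023 over all libraries left out in turn, and was 0.043 with the GC trend removed. Pcolce2 had a log2 fold change of 0.052 at a mean of 2.001 CPM with the control label.

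Ratios between chains that share a trimer or a fibre were compared for 11 pairs by an exact two-sided permutation test over 70 relabellings of the libraries, whose smallest p is 0.0286, with Benjamini-Hochberg adjustment over the pairs. No pair passed an adjusted p of 0.05, and 5 pairs reached the smallest p. Over 11 pairs, a pair at the smallest p can pass only if more pairs reach it than did here. The lack of a pass therefore does not measure the size of a difference. The ratio per length of Col2a1 to Col9a1 was 2.28, 2.35, 1.59 and 1.898 in control-labelled replicates 1 to 4 against 1.4, 0.673, 1.17 and 1.218 in mutant-labelled replicates 1 to 4. All mutant-labelled libraries were below all control-labelled ones, and the log2 ratio differed by -0.90 (exact permutation p = 0.0286, adjusted p = 0.0629). The ratio of Col9a1 to Col9a3 was 1.55, 1.29, 1.57 and 1.49 in control-labelled replicates 1 to 4 against 2.23, 2.58, 1.97 and 1.81 in mutant-labelled replicates 1 to 4. All mutant-labelled libraries were above, and the log2 ratio differed by 0.53 (exact permutation p = 0.0286, adjusted p = 0.0629). The ratio of Col1a1 to Col1a2, the chains of type I collagen, was 2.06, 2.25, 2.24 and 2.05 in control-labelled replicates 1 to 4 against 1.68, 1.92, 1.83 and 1.997 in mutant-labelled replicates 1 to 4. The mutant-labelled libraries were all below, and the log2 ratio differed by -0.21 (exact permutation p = 0.0286, adjusted p = 0.0629). The size of a ratio per length depends on the length used, while the difference between the groups does not. Over the longest transcript Col1a1 stood at 184 and Col1a2 at 194 CPM per kb over the 8 libraries. Groups were also separate for Col9a1 to Col9a2 and Col11a1 to Col2a1, with differences in log2 ratio of 0.38 and 0.61. With the GC trend removed 4 of the 5 pairs reached the smallest p, and the difference for Col11a1 to Col2a1 was 0.46 (exact permutation, adjusted p = 0.135). Without mutant-labelled replicate 2 the difference was 0.24 for Col9a1 to Col9a2, 0.42 for Col11a1 to Col2a1 and -0.67 for Col2a1 to Col9a1, and the last pair of these and Col11a1 to Col2a1 had an adjusted p of 0.105 in the exact test. Most of these pairs share Col9a1 or Col2a1 and are not independent. The ratio of Col4a1 to Col4a2 was 1.43, 1.27, 1.36 and 1.44 in control-labelled replicates 1 to 4 against 1.45, 1.28, 1.36 and 1.42 in mutant-labelled replicates 1 to 4. The groups overlapped, and the log2 ratio differed by 0.00196 (exact permutation p = 0.943, adjusted p = 0.943). The other 5 pairs had adjusted p-values from 0.105 to 0.723 in the exact test. Among them, Col8a1 to Col8a2 differed by 0.65 in log2 ratio (exact permutation, adjusted p = 0.118). Without mutant-labelled replicate 2 that difference was 0.86 (exact permutation, adjusted p = 0.0786), and with the GC trend removed it was 0.47.

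**Figure D5:**
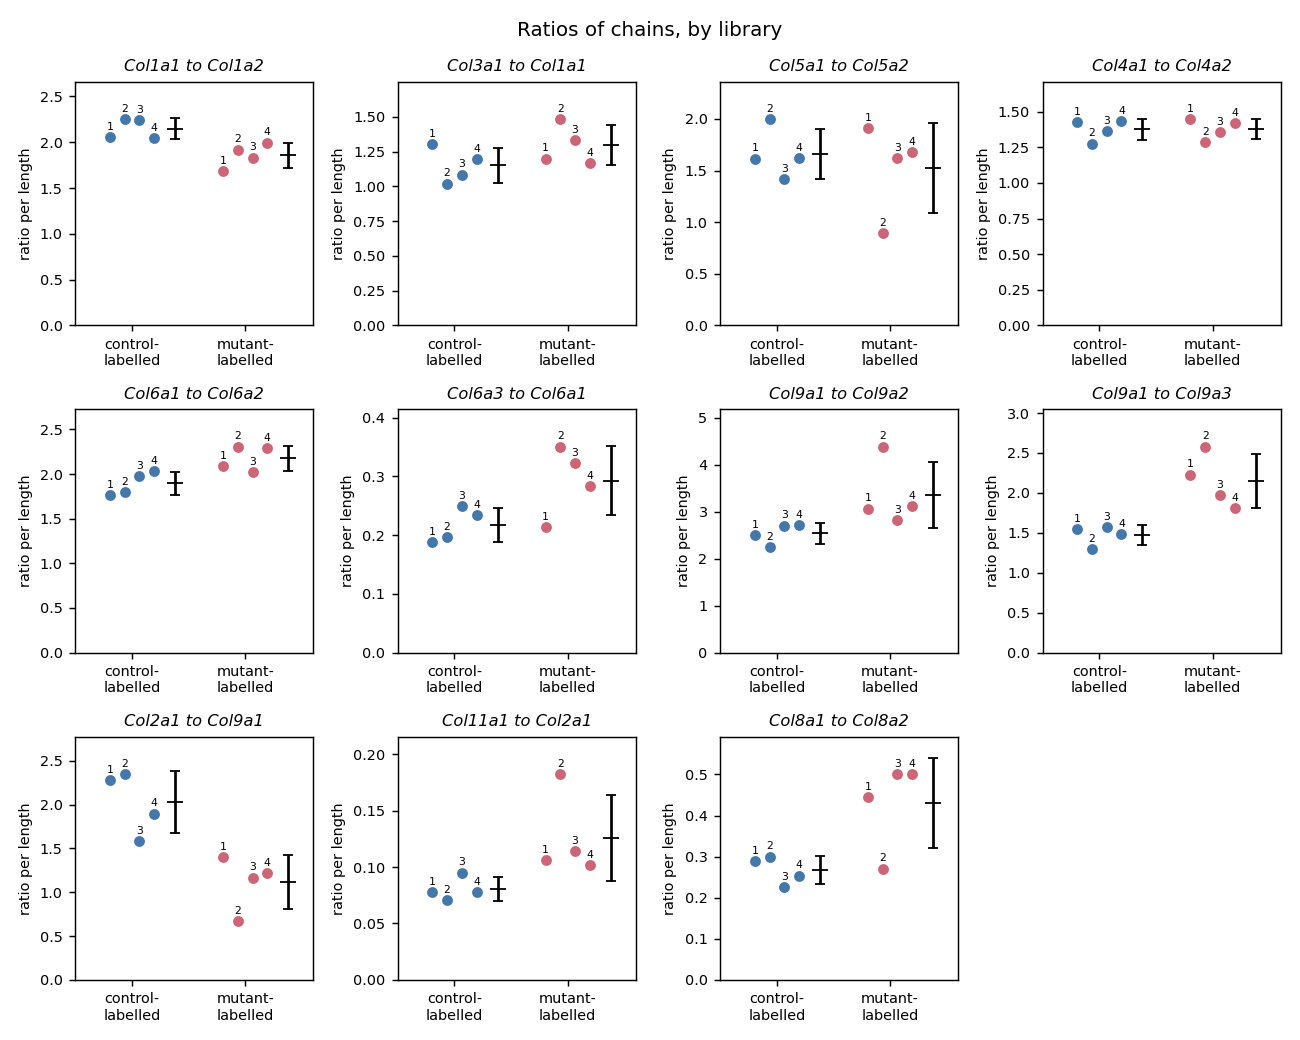
Ratio per exon length of 11 pairs of chains in each library, numbered by replicate, with the mean and SD of the 4 ratios beside each group and axes that start at 0. The groups are separate for 5 pairs and overlap for Col4a1 to Col4a2.

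Of 22 measured genes for folding, processing and secretion of collagen, 2 were higher (9.09%) and 0 lower at an unadjusted limma p under 0.05, where 5.45% of all genes were higher and 6.62% lower. Both are procollagen N-proteinases: Adamts2 stood at 63.8 ± 8.604 CPM (SD, n = 4) with the control label and 78.1 ± 11.6 CPM with the mutant label, and Adamts3 at 12.6 ± 1.46 CPM (SD, n = 4) with the control label and 14.8 ± 0.644 CPM with the mutant label. Without mutant-labelled replicate 2 the log2 fold change of Adamts3 was 0.22, against 0.23 with all libraries, and it did not pass. Of 11 receptors and uptake genes, 1 was higher and 1 lower, so that 1 gene is 9.09% of the list. Ddr2, a receptor kinase for fibrillar collagen, stood at 33.02 ± 4.27 CPM (SD, n = 4) with the control label and 46.7 ± 7.07 CPM with the mutant label, and its log2 fold change was 0.49 ± 0.12 (SE; limma, adjusted p = 0.225); it rose in the likelihood ratio test of edgeR (adjusted p = 0.0247). In that test without mutant-labelled replicate 2 Ddr2 was not called, with a log2 fold change of 0.46 (edgeR, adjusted p = 0.0675). Its relative Ddr1 stood at 285 ± 22.8 CPM (SD, n = 4) with the control label and 253 ± 13.9 CPM with the mutant label. The log2 fold change of Ddr1 was -0.17, and it was -0.056 with the GC trend removed and -0.16 without mutant-labelled replicate 2, where Ddr1 did not pass in either setting. Of 7 turnover genes 1 was higher (14.3%), the gelatinase Mmp2, at 299 ± 20.6 CPM (SD, n = 4) with the control label and 350.4 ± 38.5 CPM with the mutant label. Of 15 regulators of collagen genes 3 were higher (20%, against 5.45% of all genes) and 0 lower. They were Runx2 at 0.9604 ± 0.448 CPM (SD, n = 4) with the control label and 1.58 ± 0.306 CPM with the mutant label, Smad4 at 93.9 ± 4.87 CPM (SD, n = 4) with the control label and 105 ± 3.21 CPM with the mutant label, and the receptor Tgfbr1 at 149 ± 15.5 CPM (SD, n = 4) with the control label and 173 ± 16.5 CPM with the mutant label. The log2 fold change of Tgfbr1 was 0.21, and Tgfbr1 did not pass with the GC trend removed (0.10) or without mutant-labelled replicate 2 (0.15). No gene of these lists passed an adjusted p of 0.05 in limma, and the median log2 fold changes of the lists ran from 0.04 to 0.06. The lists were chosen with earlier results of these data known, so their shares beside those of all genes are only a description.

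Markers of other cell types were read in the same libraries. The 8 cushion mesenchyme markers, led by Vcan, summed to 3295, 2989.8, 3051 and 3294 CPM in control-labelled replicates 1 to 4 against 2779.7, 3885, 3315 and 3218 CPM in mutant-labelled replicates 1 to 4, and 0 of 8 passed an unadjusted limma p of 0.05. The 8 markers of endocardium and endothelium, led by Cdh5, summed to 1035, 944, 944 and 876 CPM in control-labelled replicates 1 to 4 against 893, 948, 925 and 975 CPM in mutant-labelled replicates 1 to 4, and Emcn was lower. Of 8 smooth muscle and mural markers, led by Acta2, 3 were higher (Myh11, Pdgfrb and Rgs5) and 2 lower (Myocd and Des), and they summed to 3816, 3805, 3323 and 3366 CPM in control-labelled replicates 1 to 4 against 3699, 3233, 3434 and 3823 CPM in mutant-labelled replicates 1 to 4. The 6 measured cartilage precursor markers, led by Hapln1, summed to 517, 519.6, 445 and 572 CPM in control-labelled replicates 1 to 4 against 552, 526, 604 and 630.3 CPM in mutant-labelled replicates 1 to 4, with Hapln1 higher, though not with the GC trend removed, and Matn1, Comp and Cnmd were not analysed here. Of the notochord markers Krt8 and Krt18 were measured and did not pass, and T, Noto, Shh and Foxa2 were not analysed here. Of 8 epicardial markers, led by Upk3b, Msln was lower, while 6 had a log2 fold change above 0. They summed to 383, 435, 505 and 431 CPM in control-labelled replicates 1 to 4. In mutant-labelled replicates 1 to 4 the sums were 370, 620, 439 and 440 CPM. Of 6 neural markers, led by Erbb3, Stmn2 was higher, while 3 had a log2 fold change above 0 and 3 below. They summed to 119, 132, 107 and 128 CPM in control-labelled replicates 1 to 4. In mutant-labelled replicates 1 to 4 the sums were 120, 94.3, 134 and 118 CPM, and Foxd3 was not analysed here. Of 7 erythroid markers (led by Hbb-y), 7 macrophage markers (led by Csf1r) and the pharyngeal marker Sox2, 0 passed. The erythroid markers summed to 1635, 3332, 2895.5 and 2710 CPM in control-labelled replicates 1 to 4. Their sums were 4303, 4932, 2769.5 and 1394 CPM in mutant-labelled replicates 1 to 4. The macrophage markers summed to 60.7 CPM in mutant-labelled replicate 2, against 36.1 to 47.4 CPM in the other libraries. Epcam, Cdh1, Krt5, Krt14, Foxa1, Pax9 and Pax1 were not analysed here. These markers were named after their values were seen. The part of these markers in the levels of the members was not tested.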

How the data were processed

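RNA-seq libraries of E11.5 OFT, 4 control-labelled and 4 mutant-labelled by the sample labels, were compared. Upstream, the authors trimmed with cutadapt, counted with RSEM on GRCm38, filtered on low CPM and deposited CPM scaled by TMM (edgeR). Whether counting used strand is not given in the sources used here. In every library 100% of the values were whole multiples of the CPM of 1 read, within 0.001 reads, and count tests and depths used these reads. In 5 libraries few values are as low as 1 read, or none is, and the CPM of 1 read was inferred from differences between values. In R 4.3.3, limma 3.58.1 with a trend was fitted to log2(CPM + 0.5) of 14608 genes. Reads were tested with the likelihood ratio test of edgeR 4.0.16 (107 genes called), its quasi-likelihood test (0) and DESeq2 1.42.0 (194). The limma fit and the likelihood ratio test were also run on simulated libraries, whose means and dispersions came from these data. Exon lengths and GC content came from GENCODE (GRCm38), and promoter windows from RefSeq (38 members had a window). Genes given in every library were members with an unadjusted limma p under 0.05 or an adjusted p under 0.05 in the likelihood ratio test, the most abundant member per kb of each role, and the 2 largest changes each way at a mean of at least 5 CPM. Members and lists were chosen with earlier results of these data known. Genes of the pathway lists with an unadjusted limma p under 0.05 are given by value.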

Additional observations from a re-analysis of the deposited data

Results flagged for a closer look

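In 42 groups of 4 libraries, 2 held a library far from the other 3 of its group. Both were mutant-labelled replicate 2. Serpinh1 stood at 860.0 CPM there, against 1359 to 1436 CPM in the other mutant-labelled libraries. Col8a2 stood at 15.4 CPM there, against 10.01 to 10.27 CPM in the others. The 42 groups come from the same 8 libraries, and neither the number expected by chance nor the cause was tested.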

How the results depend on the processing

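Adjusted limma calls of members stayed at 0 in both directions under both other pseudocounts, the filter at 5 CPM, upper quartile scaling, each left-out library, both GC settings and the quasi-likelihood test. The likelihood ratio test of edgeR called 2 members higher, DESeq2 3 higher and 1 lower, and the likelihood ratio test without mutant-labelled replicate 2 called 3 higher; over all genes these called 107, 194 and 89. Same-numbered libraries showed no sign of pairing (correlations of deviations 0.035, -0.19, 0.027 and -0.045), though a weak shared effect could escape this check. The replicate block called 0 genes (559 higher and 745 lower at an unadjusted p under 0.05, with 7 and 5 members). Small values turned sign, none of them called. With the GC trend removed these were Col18a1 (0.057), Pcolce (0.043), Col6a1 (0.067), Col26a1 (0.10), Col4a1 to Col4a2 (-0.026). With the trend and mutant-labelled replicate 2 removed they were Serpinh1 (0.014), Loxl2 (0.015), Col18a1 (0.037), Plod2 (-0.033), P4ha1 (-0.0297), Pcolce (0.034), Col6a1 (0.022), Col26a1 (0.18). In the likelihood ratio test without that library they were Loxl2 (4.4e-05), P3h4 (-0.0397), Col26a1 (0.12). Col26a1 was 0.0029, 0.00068 and 0.00034 in the likelihood ratio, quasi-likelihood and DESeq2 tests. With libraries left out in turn, P3h4 ran from -0.042 to 0.079, Pcolce ran from -0.078 to 0.023, Col6a1 ran from -0.068 to 0.065, Col26a1 ran from -0.15 to 0.11, Col4a1 to Col4a2 ran from -0.034 to 0.035 and Col5a1 to Col5a2 ran from -0.30 to 0.069. The other named members kept their direction in every setting, and so did the 8 named genes of the fixed lists, of which Runx2 has no value under the filter at 5 CPM. The GC settings and the likelihood ratio test without mutant-labelled replicate 2 were chosen after seeing the data. Levels per kb over the longest transcript moved by more than 1 SD for 12 of 21 named members. The cause of these changes was not tested. Control-labelled replicate 2 had the fewest reads, where 1 read is 0.0948 CPM.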
